A study of Mus musculus with 16 samples.

Results

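Potassium channel genes were followed in AtT-20 cells, a mouse pituitary corticotrope tumour line, before and after expression or activation of Pax7, the transcription factor that directs the melanotrope fate. The genes were chosen by symbol alone: every gene listed in both deposited tables whose symbol is Kcn, then lower-case letters, then a number. This gave 92 of 24063 genes. By symbol they comprised 40 voltage-gated pore subunits, 15 inward rectifiers, 14 tandem-pore (Kcnk) subunits and 15 auxiliary or regulatory subunits. A further 8 pore subunits (Kcnma, Kcnn, Kcnt and Kcnu) were grouped by symbol as calcium- or sodium-activated. No measured value entered this symbol rule.

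Total RNA depleted of ribosomal RNA was sequenced from cells of passages 10 to 20. In one experiment, untreated cells expressed either 3x flag-Neo (2 libraries) or 3x flag-Pax7 (2 libraries). In the other, every library came from cells expressing 3x flag-ER-Pax7, with no induction (0 h) or after 12, 24 or 96 h of 4-hydroxytamoxifen (3 libraries each). 4-Hydroxytamoxifen is a ligand used to switch on proteins fused to a receptor hormone-binding domain. Treated cells without ER-Pax7 were not analysed here, so an effect of the ligand itself and an effect of Pax7 cannot be told apart in the time course. Nothing in the labels says that replicates of a group came from separate cultures, so p-values measure only the spread between these libraries.

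Potassium channels let potassium leave the cell, which pulls the membrane potential down and ends or spaces action potentials. Corticotropes and melanotropes are electrically active endocrine cells, and calcium entering during their action potentials releases peptide hormone. Voltage-gated pores open on depolarization, calcium-activated pores open as calcium rises, inward rectifiers and tandem-pore channels set the resting potential, and auxiliary subunits tune the gating and surface delivery of the pores.

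Exon-assigned reads numbered from 61.4 to 88.7 M in a library of the time course. Gene-body reads of the other experiment were estimated at 44.2 to 54.7 M a library. Values below are scaled exon reads for the ER-Pax7 libraries and FPKM (fragments scaled to gene-body length and library depth) for Neo and Pax7, both divided by TMM factors. Pax7 itself was at 0.00 and 0.01 FPKM in the Neo libraries and at 2.29 and 2.36 FPKM in the Pax7 libraries. In ER-Pax7 cells Pax7 was between 1688 and 1766 scaled reads already at 0 h and between 1861 and 1909 at 96 h. Corticotrope markers (7 listed) were all detected and summed to between 105258 and 110188 scaled reads at 0 h, 87177 and 89329 at 24 h and 104288 and 111476 at 96 h. In FPKM they summed to between 2550 and 2554 in Neo and 2349 and 2493 in Pax7. A sum can hide single members: Crhr1 was lower at 96 h (-0.54 ± 0.14, log2, SE; limma adjusted p = 0.00603). The other corticotrope markers are not given singly. Melanotrope markers (4 listed: Pax7, Pcsk2, Oacyl and Drd2) summed to between 1868 and 1957 scaled reads at 0 h, 1958 and 2086 at 12 h, 2031 and 2236 at 24 h and 2467 and 2575 at 96 h, and to between 0.07 and 0.09 FPKM in Neo and 4.36 and 4.46 in Pax7. Most of the sum in ER-Pax7 cells was Pax7 itself, while Drd2 was listed at 0 at 0, 24 and 96 h and in the Neo and Pax7 libraries. Of the 5 fibroblast markers, Col1a2, Col3a1, Dcn and Lum were listed at 0 in Neo, Pax7 and 0 h libraries. At 24 h only Dcn was at 0 in every library. The remaining marker, Col1a1, made up the sum of 20.8 to 28.4 scaled reads at 0 h. Its 96 h difference was -0.42 ± 0.13 (log2, SE; limma adjusted p = 0.0149). It was not called in Pax7 against Neo (limma adjusted p = 0.778). The summed glial markers moved between 1373 and 1504 scaled reads over the 12 ER-Pax7 libraries, and from 4.14 and 4.42 FPKM in Neo to 5.32 and 5.59 in Pax7. Blood and macrophage markers (5 listed) summed to between 12.09 and 14.96 scaled reads at 0 h and 8.40 and 12.07 at 96 h. Their sums were 0.22 and 0.26 FPKM in Neo and 0.34 and 0.50 in Pax7. The part of these shifts in the results below was not tested. Bulk RNA cannot tell fewer cells expressing a gene from less RNA per cell.

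Most potassium channel genes were low or not detected. Across ER-Pax7 libraries 52 of the 92 passed the filter (at least 1 scaled exon read in at least 3 libraries), and 15 of the other 40 were listed at 0 in all 12 libraries. Across Neo and Pax7 libraries 33 passed (at least 0.1 FPKM in at least 2 libraries), all of them among the 52, and 32 of the other 59 were listed at 0 in all 4 libraries. No gene that failed exceeded 1.59 deposited scaled reads or 0.1 FPKM. The voltage-gated family, also the largest, had the most silent members, with 10 of its 40 genes listed at 0 throughout the ER-Pax7 libraries. Of the inward rectifiers 3 of 15 were at 0 there, and of the Kcnk genes 2 of 14.

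A few genes carried most of the potassium channel RNA. Compared per kilobase of exon at 0 h, Kcnk1, a weakly inward-rectifying tandem-pore channel, led with 627 ± 6.50 scaled reads per kb (SD, n = 3), 23.7% of the summed level of all 92 genes. Other high levels were those of Kcnk16 at 212 ± 11.5, Kcnip3 at 183 ± 2.84, Kcnh6 at 122 ± 2.26 and Kcnj3 at 117 ± 5.45 scaled reads per kb. Kcnh6 and Kcnj3 differed by less than the sum of their SDs, while the steps from Kcnk1 to Kcnk16, to Kcnip3 and to Kcnh6 were larger than the spread between libraries. Kcnn3 led the calcium- or sodium-activated pores at 75.6 ± 1.71 scaled reads per kb. The plot of levels by subfamily shows each library.

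**Figure D1:**
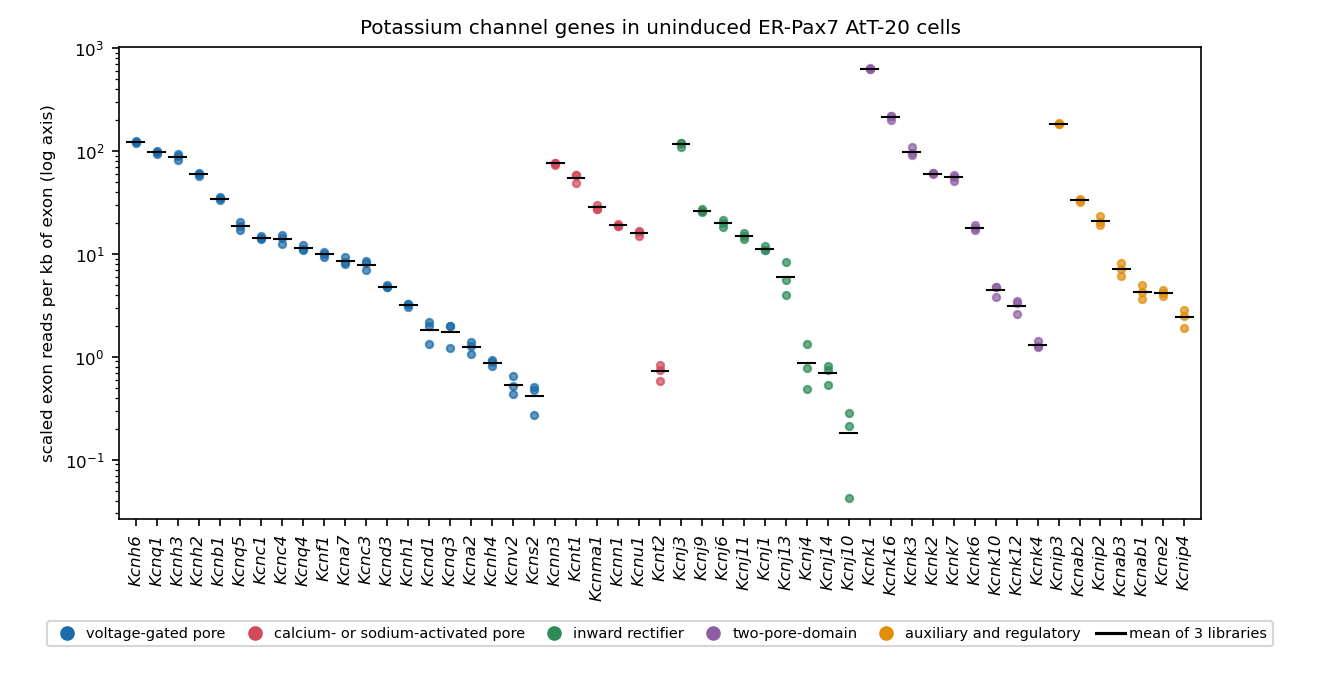
Level of 51 tested potassium channel genes in uninduced ER-Pax7 cells (y axis: scaled exon reads per kb of exon, log axis; x axis: genes, grouped and coloured by subfamily and ordered by level). Points are 3 libraries and black lines their means; Kcnk1 at 627 stands above the rest shown, and each subfamily spans at least an order of magnitude.

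In the Neo libraries, where the unit is FPKM over the gene body and introns dilute long genes, Kcnk1 was at 4.22 FPKM, or 10.3% of the summed level. Kcnk7 was at 3.79, Kcnh2 at 3.72 and Kcnip3 at 2.02 FPKM (n = 2). Levels are not set against those of the ER-Pax7 table, because 19 of the 92 genes are represented there by another transcript and the lengths differ for the rest.

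During ER-Pax7 activation more potassium channel genes fell than rose. At 12 h, 4 were called higher and 8 lower of 52 tested (limma, Benjamini-Hochberg adjusted p under 0.05 over 15188 genes). Calls made up 23.1% of the potassium channel genes tested, against 6.53% of all genes tested (2.92% higher and 3.61% lower). At 24 h 7 were higher and 10 lower, or 32.7% against 13.6% of all genes (5.66% higher and 7.92% lower). At 96 h 9 were higher and 16 lower, or 48.1% against 33.8% of all genes. Over all genes at 96 h, 16.5% were called higher and 17.3% lower, so for the potassium channel genes the higher share (17.3%) was close to the background and the lower share (30.8%) above it. Their median log2 difference at 96 h was -0.08, beside 0.00 over all genes. Between 24 and 96 h, 3 rose and 6 fell, 17.3% against 12.6% of all genes (6.03% higher and 6.62% lower). The 3 contrasts with 0 h share the same control libraries and are not independent of each other.

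Most changes were small. At 96 h 9 of the 52 (17.3%) were called with a log2 difference of at least 0.5 in size. That was a larger share than the 6.75% of all genes tested. The full range was -1.72 for Kcnj1 to 0.67 for Kcnip3. The summed level of all 92 genes was 2640 ± 36.3 scaled reads per kb at 0 h and 2459 ± 21.9 at 96 h (SD, n = 3), given as a description with no test. Voltage-gated pores went from 913 to 702 and tandem-pore genes from 1080 to 967 scaled reads per kb. Auxiliary genes went from 256 to 357, calcium- or sodium-activated pores from 195 to 230, and inward rectifiers from 197 to 203. Single genes weighed heavily in these sums. At 0 h Kcnip3 alone held 183 of the auxiliary 256, and Kcnk1 held 627 of the tandem-pore 1080. The median log2 difference of the auxiliary genes tested at 96 h was 0.01, beside 0.67 for Kcnip3.

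In the Pax7 against Neo libraries 11 potassium channel genes were called higher and 5 lower of 33 tested (limma, adjusted p under 0.05 over 13393 genes). That is 48.5% of those tested, against 36.6% of all genes tested, and 33.3% higher against 18.1% of all genes. The lower share was 15.2%, beside 18.5% over all genes. The median log2 difference was 0.04 beside 0.00 over all genes. Kcnma1, among the 11 called higher, passed the filter only through the Pax7 libraries, so its higher value was required and gives no support. Only 2 libraries stood on each side. When any 1 of the 4 libraries was left out, between 6 and 8 genes were called, and 6 of the 16 calls, among them Kcnab2, Kcnc1, Kcnip3, Kcnk16 and Kcnk6, held whichever library was left out. The log2 differences of 28 genes called at least once are shown in the map of differences.

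**Figure D2:**
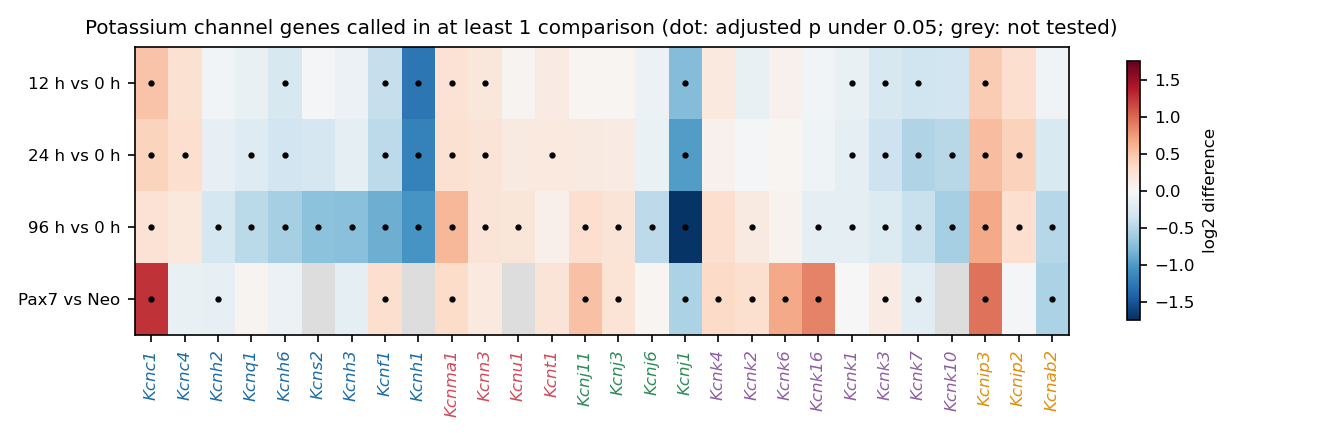
Log2 differences (colour scale) of 28 potassium channel genes called in at least 1 comparison, one column per gene, coloured by subfamily as in the plot of levels and sorted within a subfamily by the 96 h value; rows are 12, 24 and 96 h against 0 h and Pax7 against Neo. Dots mark limma adjusted p under 0.05 and grey cells were not tested; Kcnj1 and Kcnh1 are the darkest blue columns, and Kcnc1 and Kcnip3 are red in all 4 rows.

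Among voltage-gated pores, 8 fell and 1 rose at 96 h of 21 tested, with a median log2 difference of -0.23. That was 38.1% lower and 4.76% higher, beside 17.3% and 16.5% of all genes tested. In Pax7 against Neo 2 were higher and 2 lower of 12 tested. Each share was 16.7%, near the 18.1% higher and 18.5% lower of all genes, and the median log2 difference was -0.04. The gene that rose at 96 h was Kcnc1, a fast delayed rectifier that supports brief, high-frequency spikes. Its scaled reads were 108, 111 and 117 at 0 h, 155, 162 and 157 at 12 h, 155, 149 and 138 at 24 h and 136, 132 and 132 at 96 h. All 9 induced libraries lay above the 3 uninduced ones. The differences from 0 h were 0.49 ± 0.06 at 12 h (log2, SE; limma adjusted p = 5.79e-06), 0.39 ± 0.06 at 24 h and 0.25 ± 0.06 at 96 h (adjusted p = 0.00174). In the other experiment Kcnc1 was at 0.283 and 0.240 FPKM in Neo and at 0.765 and 0.774 FPKM in Pax7. This rise of 1.27 ± 0.08 on the log2(FPKM + 0.1) scale (limma adjusted p = 0.00332) was the largest among the 33 potassium channel genes tested there.

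Kcnh1, an ether-a-go-go channel, showed the largest early fall. It had 23.3, 21.6 and 23.1 scaled reads at 0 h, 9.58, 8.68 and 8.38 at 12 h, 11.1, 8.41 and 9.0 at 24 h and 12.1, 12.5 and 7.90 at 96 h. No induced library reached the lowest uninduced one. The difference at 12 h was -1.26 ± 0.15 (log2, SE; limma adjusted p = 1.15e-05), and 96 h differed from 24 h by 0.16 ± 0.15 (limma adjusted p = 0.578). Kcnh1 was too low to be tested in Pax7 against Neo.

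Kcnh3, Kcnh6 and Kcnh2, of the same family, were also lower at 96 h. Kcnh3 had 330, 318 and 290 scaled reads at 0 h, 276, 320 and 275 at 12 h, 292, 295 and 245 at 24 h and 196, 189 and 180 at 96 h. The 12 h and 24 h values overlapped those at 0 h, and all 3 libraries at 96 h lay below every other library. The 96 h difference was -0.73 ± 0.07 (log2, SE; limma adjusted p = 8.45e-08), and most of it, -0.55 ± 0.07, came after 24 h. Kcnh6 was already lower at 12 h, by 0.27, and fell by 0.34 at 24 h and by 0.58 ± 0.05 at 96 h (log2; limma adjusted p = 0.0019 at 12 h and 4.16e-08 at 96 h). Kcnh2, the Erg channel of pituitary and heart, was called lower only at 96 h among the times, at -0.31 ± 0.06, and its later change from 24 h was not called (-0.16; limma adjusted p = 0.109). In Pax7 against Neo the differences were -0.17 ± 0.06 for Kcnh3, -0.10 ± 0.03 for Kcnh6 and -0.14 ± 0.03 for Kcnh2. The first 2 were not called (limma adjusted p = 0.0961 and 0.0975), and the Kcnh2 call (limma adjusted p = 0.0402) was lost whichever library was left out (0.0937 to 0.139) and without TMM factors (0.364).

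Kcnq1, the delayed rectifier of heart and epithelia, fell by 0.47 ± 0.06 at 96 h (log2; limma adjusted p = 1.55e-06) and differed by 0.05 in Pax7 against Neo (limma adjusted p = 0.573). Kcnq1 overlaps the antisense gene Kcnq1ot1 over 121 bases of exon and 83437 bases of gene body, the span over which FPKM were counted. Kcnq1ot1 differed by 0.21 at 96 h, in the other direction, and by 0.23 in Pax7 against Neo (limma adjusted p = 0.0457 and 0.123). No header states that strand was used in counting, and the part of the overlap in the Kcnq1 values was not tested.

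Kcnf1, a silent subunit that conducts only with other voltage-gated subunits, fell with time. It had 47.3, 50.0 and 44.4 scaled reads at 0 h, 35.7, 35.0 and 36.0 at 12 h, 37.1, 32.4 and 33.4 at 24 h and 25.6, 23.1 and 28.2 at 96 h. Uninduced, intermediate and 96 h libraries formed 3 ranges that did not overlap. The 96 h difference was -0.86 ± 0.09 (log2, SE; limma adjusted p = 4.91e-07), and without 0 h replicate 2 the 12 h call was lost (limma adjusted p = 0.0646). In Pax7 against Neo it was higher, 0.828 and 0.856 FPKM in Neo against 1.03 and 1.07 in Pax7. That difference of 0.29 ± 0.04 was called (limma adjusted p = 0.0147) but not with any 1 library left out (0.0613 to 0.0806). Kcns2, another silent subunit, was between 0.80 and 1.07 scaled reads at 96 h against 1.47 to 2.80 at 0 h. Its difference of -0.71 ± 0.24 (limma adjusted p = 0.0287) was lost in 5 of the 6 leave-outs (fits without 1 of the 6 libraries compared), all but that of 0 h replicate 3.

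**Figure D3:**
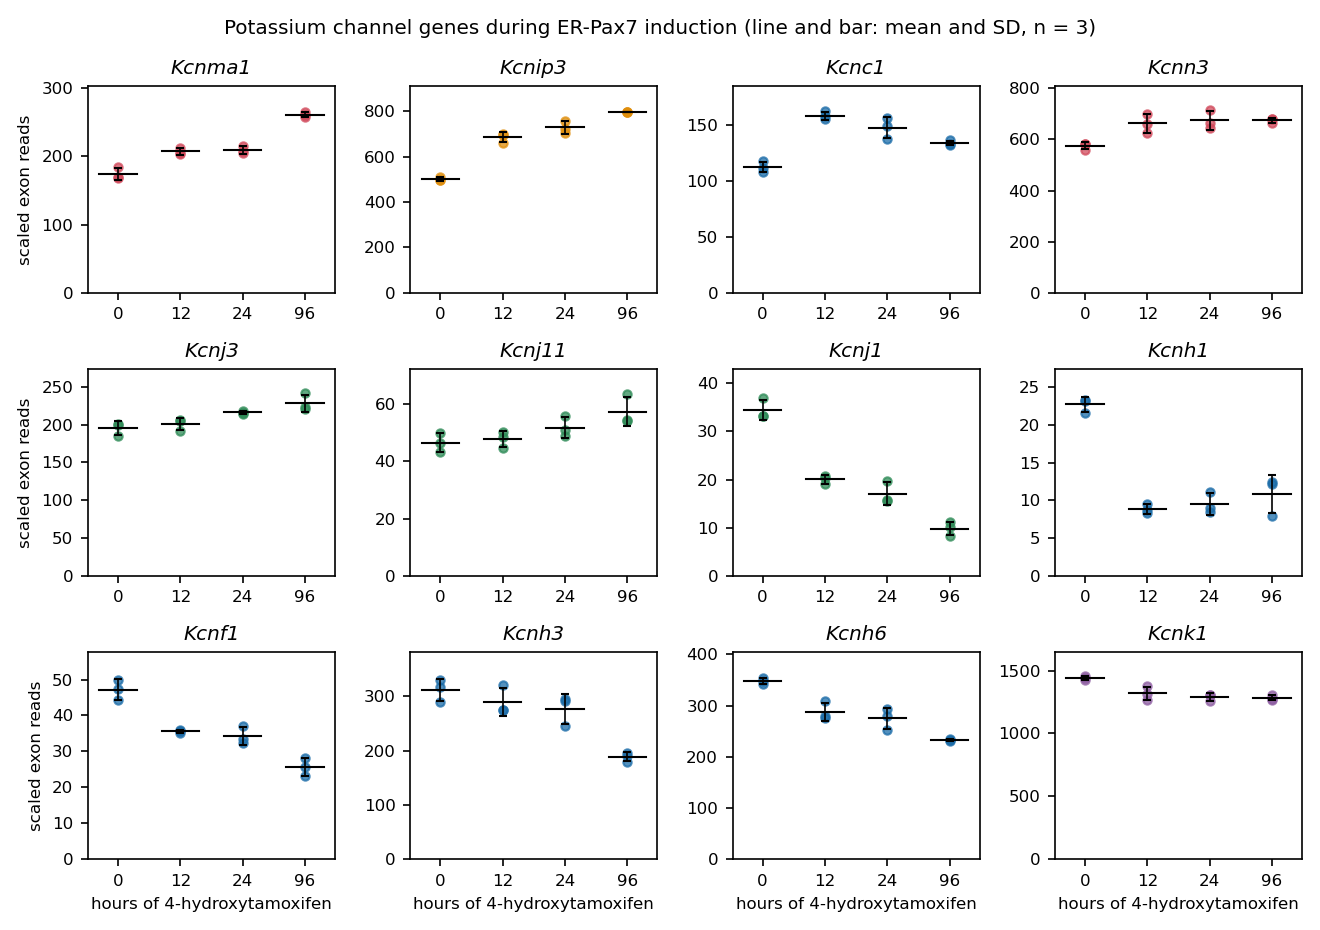
Scaled exon reads (y axes, from 0) of 12 potassium channel genes against hours of 4-hydroxytamoxifen (x axes, evenly spaced) in ER-Pax7 cells; points are libraries, lines and bars the mean and SD of 3. Kcnip3 steps up by 12 h and is near 799 at 96 h, Kcnma1 and Kcnh3 take a further step after 24 h, and Kcnj1 lies below its 0 h libraries at every later time.

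In the group named calcium- or sodium-activated pores, none was called lower at 96 h and 3 of 6 tested were called higher. The higher share was 50.0%, beside 16.5% of all genes tested (17.3% lower). Among the 3, Kcnu1 was placed in this group by symbol only, and its call was lost in 4 of 6 leave-outs. Kcnma1 is the pore of the BK channel, which opens to calcium and voltage together and shapes the action potentials of pituitary cells. Its scaled reads were 169, 170 and 185 at 0 h, 204, 213 and 205 at 12 h, 208, 216 and 205 at 24 h and 261, 266 and 258 at 96 h. The libraries formed a low, an intermediate and a high range that did not overlap, with 12 h and 24 h sharing the intermediate one. The differences were 0.25 ± 0.05 at 12 h, 0.27 ± 0.05 at 24 h and 0.58 ± 0.05 at 96 h (log2, SE; limma adjusted p = 0.00185, 0.000578 and 9.07e-09). The further rise from 24 to 96 h was 0.32 ± 0.05 (limma adjusted p = 0.000139).

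In FPKM over its 705511 bp gene body, Kcnma1 was at 0.061 and 0.063 in Neo and at 0.105 and 0.099 in Pax7. It passed the filter only through the Pax7 libraries, so a higher value there was required and gives no support. The difference of 0.32 ± 0.08 (limma adjusted p = 0.0384) was lost whichever library was left out (0.115 to 0.139).

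The BK channel's beta subunits were close to absent: Kcnmb1, Kcnmb2, Kcnmb3 and Kcnmb4 did not exceed 0.86 deposited scaled reads in any ER-Pax7 library. Its leucine-rich gamma subunits come from the list of partner genes outside the symbol rule. Lrrc26 was at 0.59 and 0.50 FPKM in Neo and 0.79 and 0.95 in Pax7, a difference of 0.59 ± 0.11 (log2; limma adjusted p = 0.0246) that was lost whichever library was left out (0.0567 to 0.0964). Its 96 h difference of 0.27 ± 0.15 was not called (limma adjusted p = 0.166). Lrrc55 was at 0.01 and 0.02 FPKM in Neo and 0.39 and 0.36 in Pax7, 2.04 ± 0.09 higher on the log2(FPKM + 0.1) scale, and it too passed the filter only through Pax7. In ER-Pax7 cells Lrrc55 stayed under the filter, at 0.00, 0.35 and 0.32 scaled reads at 0 h and 0.90, 1.59 and 1.16 at 96 h.

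Kcnn3, a small-conductance calcium-activated pore, had 560, 584 and 582 scaled reads at 0 h and 682, 678 and 664 at 96 h. The ranges did not overlap, and the rise of 0.20 ± 0.04 at 12 h was nearly as large as the 0.23 ± 0.04 at 96 h (log2, SE; limma adjusted p = 0.00513 and 0.000364). In Pax7 against Neo Kcnn3 differed by 0.18 ± 0.06 and was not called (limma adjusted p = 0.0993). Kcnu1, a relative of the BK pore best known from sperm, was 0.22 ± 0.08 higher at 96 h (limma adjusted p = 0.0413), a call lost without 0 h replicates 2 or 3 or 96 h replicates 1 or 2 (0.0566 to 0.168). Kcnt1, a sodium-activated pore, was called at 24 h (0.17; limma adjusted p = 0.0484) and lost without 0 h replicate 1 or 24 h replicates 1 or 2 (0.144 to 0.277).

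Inward rectifiers moved both ways, with 2 higher and 2 lower of 9 tested at 96 h. Each share was 22.2%, near the 16.5% higher and 17.3% lower of all genes tested. Kcnj1, the channel that returns potassium to the urine in the kidney tubule, had the largest fall of all 52 genes. Its scaled reads were 33.3, 36.9 and 33.3 at 0 h, 20.3, 19.0 and 20.8 at 12 h, 15.8, 15.5 and 19.8 at 24 h and 8.31, 11.1 and 10.1 at 96 h. Uninduced libraries lay above all others and 96 h libraries below all others, while the 12 h and 24 h ranges overlapped. The differences were -0.75 ± 0.12, -0.98 ± 0.12 and -1.72 ± 0.12 (log2, SE; limma adjusted p = 0.000374, 9.22e-06 and 1.19e-09). In FPKM, Kcnj1 was at 0.778 and 0.887 in Neo and 0.554 and 0.516 in Pax7. This difference of -0.55 ± 0.08 (limma adjusted p = 0.0132) was lost in 3 of 4 leave-outs, all but that of Neo replicate 1 (0.0513 to 0.0695). The exon table counts Kcnj1 from chr9:32372418-32399194 and the gene-body table from chr9:32393985-32399194 (mm10, + strand), so the 2 measurements cover different transcripts of the gene.

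Kcnj11 and Abcc8 encode the pore and the regulatory receptor of the channel that closes when ATP is plentiful, known for coupling glucose to insulin release. Abcc8, from the partner list, had 254, 284 and 249 scaled reads at 0 h and 438, 433 and 395 at 96 h, and 0.37 and 0.38 FPKM in Neo against 0.69 and 0.70 in Pax7. Neither pair of ranges overlapped, with rises of 0.68 ± 0.06 and 0.75 ± 0.04 (log2, SE; limma adjusted p = 1e-08 and 0.00335). Kcnj11 moved the same way by less in the time course, from 50.0, 46.4 and 43.4 to 63.5, 54.6 and 54.3 scaled reads. The ranges did not overlap, and the rise of 0.30 ± 0.09 (limma adjusted p = 0.0131) was lost if either 0 h replicate 3 or 96 h replicate 1 was dropped (0.0663 to 0.0855). In FPKM Kcnj11 went from 1.25 and 1.40 in Neo to 1.94 and 1.90 in Pax7, or 0.51 ± 0.06 (limma adjusted p = 0.00995), a call lost without either Pax7 library (0.0609 and 0.0637).

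The G-protein-gated rectifiers, which slow firing when receptors such as those for dopamine or somatostatin are bound, did not move together. Kcnj3 rose from 199, 185 and 202 scaled reads at 0 h to 221, 223 and 241 at 96 h (0.23 ± 0.05, log2; limma adjusted p = 0.00182). In Pax7 against Neo it was 0.24 ± 0.05 higher (limma adjusted p = 0.0331), a call lost whichever library was left out. Kcnj6 fell by 0.46 ± 0.08 at 96 h (log2; limma adjusted p = 0.00013). Kcnj9, the inward rectifier with the highest FPKM in Neo, differed by -0.12 ± 0.08 at 96 h and by 0.00 ± 0.09 in Pax7 against Neo, and was not called in either (limma adjusted p = 0.253 and 0.982).

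Tandem-pore genes, which carry background potassium current, were mostly lower in the time course and mostly higher in Pax7 than in Neo, a contrast that was not tested. At 96 h 1 of its 9 tested genes was higher and 5 were lower, or 11.1% and 55.6%, beside 16.5% and 17.3% of all genes. In Pax7 against Neo 5 of 7 were higher and 1 lower, or 71.4% and 14.3%, beside 18.1% and 18.5% of all genes. Of those 5 higher calls Kcnk16 and Kcnk6 held in all 4 leave-outs, while Kcnk2, Kcnk3 and Kcnk4 were lost in each. Kcnk16, an alkaline-sensitive channel known from pancreatic islets, was at 1.46 and 1.39 FPKM in Neo and 2.59 and 2.78 in Pax7. That rise of 0.87 ± 0.05 (log2, SE; limma adjusted p = 0.00332) held in all 4 leave-outs. In the time course Kcnk16 was at 189, 193 and 174 scaled reads at 0 h and 170, 161 and 170 at 96 h, a fall of 0.15 ± 0.06 (limma adjusted p = 0.0442) that was lost in 5 of 6 leave-outs, all but that of 0 h replicate 3 (0.065 to 0.17). Kcnk6, another weakly rectifying family member, rose from 0.889 and 0.877 FPKM to 1.44 and 1.47 (0.66 ± 0.04, log2; limma adjusted p = 0.00288). At 96 h it differed by 0.06 ± 0.07 (limma adjusted p = 0.543).

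Kcnk3, an acid-sensitive background channel, had 412, 361 and 346 scaled reads at 0 h and 314, 318 and 308 at 96 h, a fall of 0.25 ± 0.06 (log2, SE; limma adjusted p = 0.00164). An opposite-strand gene, Gm9899, overlaps 450 bases of its gene body and no exon. Kcnk3 was lowest at 24 h, 0.37 ± 0.06 below 0 h on the log2 scale. In FPKM it was higher in Pax7, 1.61 and 1.56 against 1.42 and 1.41 in Neo. That difference of 0.15 ± 0.04 (limma adjusted p = 0.0432) was lost whichever library was left out (0.124 to 0.164). Kcnk7, a family member with no known current of its own, fell in both: by 0.39 ± 0.08 at 96 h (limma adjusted p = 0.00126) and by 0.20 ± 0.03 in Pax7 against Neo (limma adjusted p = 0.016, lost whichever library was left out).

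The dominant Kcnk1 changed little. It had 1439, 1459 and 1430 scaled reads at 0 h and 1277, 1268 and 1307 at 96 h, ranges that did not overlap. The fall was 0.17 ± 0.03 at 96 h (log2, SE; limma adjusted p = 0.000812), and in Pax7 against Neo the difference was -0.01 ± 0.03 (limma adjusted p = 0.84). The stretch-activated channels parted: Kcnk2 was 0.16 ± 0.05 higher at 96 h (limma adjusted p = 0.0134, lost if 0 h replicate 2 or 96 h replicate 3 was dropped) and Kcnk10 was 0.58 ± 0.15 lower (limma adjusted p = 0.00642), at 12.0, 12.0 and 9.65 scaled reads at 0 h and 8.20, 6.77 and 6.65 at 96 h. Kcnk2 was also 0.28 ± 0.07 higher in Pax7 against Neo (limma adjusted p = 0.0405), and Kcnk4 0.34 ± 0.07 (limma adjusted p = 0.0265). Both calls were lost whichever library was left out.

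Among auxiliary genes called, Kcnip3 had the largest difference in each comparison with 0 h and in Pax7 against Neo. It encodes a calcium-binding protein that attaches to Kcnd pores and also acts as a transcriptional repressor. Its scaled reads were 511, 499 and 497 at 0 h, 695, 702 and 661 at 12 h, 760, 723 and 707 at 24 h and 799, 799 and 798 at 96 h. The 4 times did not overlap. The rises were 0.45 ± 0.04, 0.54 ± 0.04 and 0.67 ± 0.04 (log2, SE; limma adjusted p = 4.85e-08, 1.47e-09 and 1.68e-11), and the step from 24 to 96 h of 0.13 ± 0.04 (limma adjusted p = 0.0215) was lost in 5 of 6 leave-outs, all but that of 24 h replicate 1 (0.0556 to 0.0901). In FPKM it was at 2.05 and 1.99 in Neo and 3.87 and 4.10 in Pax7, 0.94 ± 0.04 higher (limma adjusted p = 0.00213). As for Kcnj1, the 2 measurements cover different transcripts of the gene.

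The Kcnd pores that Kcnip3 binds were low. Kcnd2 was listed at 0 in all 12 ER-Pax7 libraries, Kcnd1 did not exceed 4.20 scaled reads, and Kcnd3 lay between 29.9 and 38.9 and differed by 0.05 at 96 h (limma adjusted p = 0.728). Dpp6, a membrane partner of the same pores taken from the partner list, fell from 122, 137 and 130 scaled reads at 0 h to 62.0, 59.3 and 53.0 at 96 h (-1.15 ± 0.08, log2; limma adjusted p = 8.89e-10). Kcnip2, a relative of Kcnip3, was 0.41 ± 0.09 higher at 24 h (log2; limma adjusted p = 0.00382), a call held in all 6 leave-outs. It was 0.29 ± 0.09 higher at 96 h (limma adjusted p = 0.0183), with overlapping ranges and a call lost without 0 h replicates 2 or 3 or 96 h replicate 3 (0.0529 to 0.122). In Pax7 against Neo it differed by -0.02 ± 0.06 (limma adjusted p = 0.824). Kcnab2, a beta subunit of Kcna pores, fell from 123, 114 and 120 to 90.9, 81.1 and 81.3 scaled reads (-0.49 ± 0.09, log2; limma adjusted p = 0.000252). In FPKM it fell from 0.475 and 0.459 to 0.277 and 0.298 (-0.55 ± 0.06; limma adjusted p = 0.00722).

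The 250 bases before the start site are shown for genes that rose (Kcnma1, Kcnip3, Kcnc1) or fell (Kcnh1, Kcnf1) and whose RefSeq start is that of the exon table. Pax7 binds DNA through a homeodomain, whose core letters are TAAT, and a paired domain, whose core letters are GTCAC; capitals mark either one on either strand. Sequences are from RefSeq (GRCm38.p6), 5′ to 3′ on the gene's strand, at chr14:24004206-24004455 (- strand) for Kcnma1, chr2:127521393-127521642 (- strand) for Kcnip3, chr7:46396218-46396467 (+ strand) for Kcnc1, chr1:192190527-192190776 (+ strand) for Kcnh1 and chr12:17176889-17177138 (- strand) for Kcnf1.
Kcnma1: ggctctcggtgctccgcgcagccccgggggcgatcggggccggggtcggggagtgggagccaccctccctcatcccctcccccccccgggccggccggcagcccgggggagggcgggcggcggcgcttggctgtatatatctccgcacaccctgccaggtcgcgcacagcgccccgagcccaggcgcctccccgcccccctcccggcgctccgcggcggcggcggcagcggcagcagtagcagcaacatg
Kcnip3: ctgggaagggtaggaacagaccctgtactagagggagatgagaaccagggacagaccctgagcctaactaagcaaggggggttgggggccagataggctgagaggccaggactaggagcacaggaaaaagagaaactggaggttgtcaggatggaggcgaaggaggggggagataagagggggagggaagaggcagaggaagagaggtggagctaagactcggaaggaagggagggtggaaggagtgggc
Kcnc1: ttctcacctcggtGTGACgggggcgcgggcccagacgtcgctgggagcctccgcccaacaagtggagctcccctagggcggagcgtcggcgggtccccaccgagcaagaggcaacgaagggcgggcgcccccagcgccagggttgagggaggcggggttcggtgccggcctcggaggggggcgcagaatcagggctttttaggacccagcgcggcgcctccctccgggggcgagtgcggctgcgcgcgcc
Kcnh1: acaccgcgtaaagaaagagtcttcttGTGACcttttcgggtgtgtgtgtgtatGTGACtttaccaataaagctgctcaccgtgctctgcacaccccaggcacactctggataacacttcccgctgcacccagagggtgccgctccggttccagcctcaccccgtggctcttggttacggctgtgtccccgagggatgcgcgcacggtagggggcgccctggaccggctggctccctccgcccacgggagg
Kcnf1: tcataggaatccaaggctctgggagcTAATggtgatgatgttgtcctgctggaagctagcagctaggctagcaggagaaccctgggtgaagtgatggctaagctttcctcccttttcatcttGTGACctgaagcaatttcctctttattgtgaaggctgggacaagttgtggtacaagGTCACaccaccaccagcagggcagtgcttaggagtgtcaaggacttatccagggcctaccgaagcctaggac
The Kcnma1 and Kcnip3 windows held neither run of letters, Kcnc1 held GTCAC 1 time, Kcnh1 2 times, and Kcnf1 held TAAT 1 time and GTCAC 2 times. Of the 92 genes, 67 had such a window. TAAT was in 40.3% of the 67 and in 54.9% of all 32851 windows, and GTCAC in 46.3% and 39.8%. These matches describe letters only, and Pax7 binding was not measured in these libraries.

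Both experiments could be set side by side for 33 genes, and 14 were called both at 96 h and in Pax7 against Neo. Of these 14, 11 moved the same way and 3 the opposite way. Over all genes tested in both, 17.9% were called in both and 87.4% of those moved the same way. Among the 11 were Kcnc1, Kcnip3, Kcnma1, Kcnj11, Kcnj3 and Kcnk2, higher in both, and Kcnj1, Kcnh2, Kcnk7 and Kcnab2, lower in both. Kcnma1 passed the FPKM filter only through its Pax7 libraries, so its place among the 11 gives no support. Kcnip3, Kcnma1, Kcnk2, Kcnj1, Kcnh2 and Kcnab2 were counted on different transcripts in the 2 experiments. The 3 with opposite signs were Kcnf1, Kcnk16 and Kcnk3. A further 7 were called at 96 h only, 2 (Kcnk4 and Kcnk6) in Pax7 against Neo only, and 10 in neither. The tables were normalized separately and count different parts of a gene, so the difference between the experiments was not tested. The plot of both differences names 13 of the 14 genes.

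**Figure D4:**
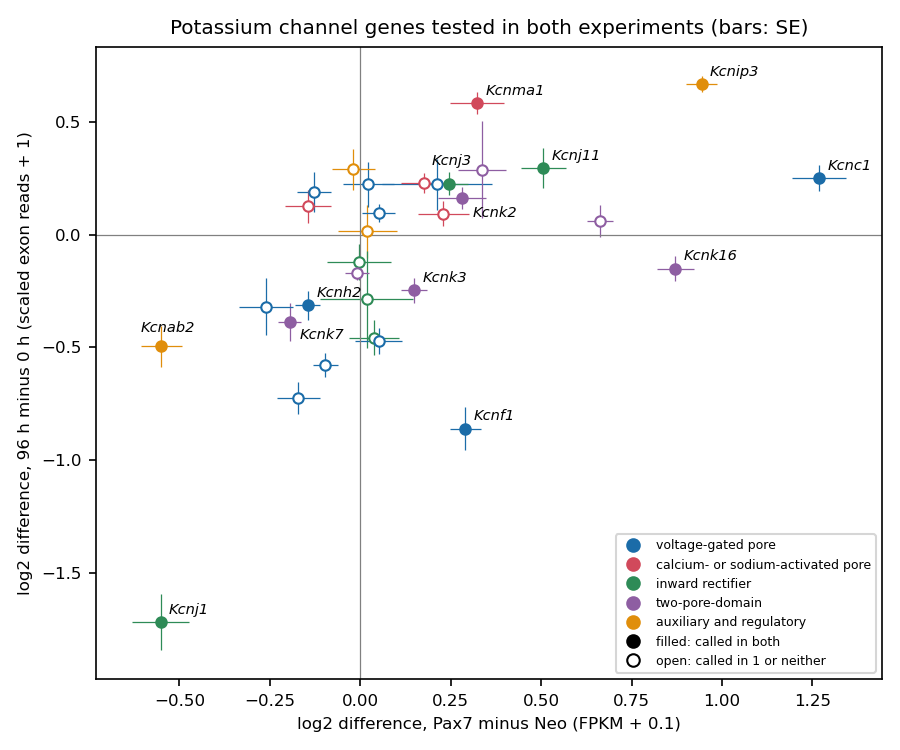
Log2 difference at 96 h against 0 h in ER-Pax7 cells (y axis, scaled exon reads + 1) against the log2 difference of Pax7 minus Neo (x axis, FPKM + 0.1) for 32 potassium channel genes, with SE bars and colours by subfamily; filled points were called in both. Kcnj1 lies far at the lower left, Kcnip3 and Kcnc1 at the upper right, and Kcnf1, Kcnk16 and Kcnk3 in the lower right quadrant.

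Genes that work with these channels were taken from 3 further lists. Of 18 partner genes, 13 were tested at 96 h, with 2 higher and 6 lower (61.5% called, against 33.8% of all genes tested). In Pax7 against Neo 11 were tested, with 4 higher and 2 lower (54.5%, against 36.6%). Lrrc55, among those 4, passed the filter only through the Pax7 libraries, so its higher value was required and gives no support. Of 22 genes for potassium pumps, their regulators and cotransporters, 18 were tested at 96 h, with 4 higher and 5 lower (50.0% called), and 14 in Pax7 against Neo, with 2 higher and 3 lower (35.7%). Fxyd3, a small regulator of the sodium pump, fell from 116, 111 and 104 scaled reads at 0 h to 21.7, 21.6 and 23.1 at 96 h (-2.27 ± 0.10, log2; limma adjusted p = 9.01e-13). It was also lower in Pax7 than in Neo, at 0.59 and 0.64 against 1.62 and 1.85 FPKM (-1.35 ± 0.08; limma adjusted p = 0.00338). Slc12a1, a kidney cotransporter that works beside Kcnj1 in the tubule, did not exceed 3.68 scaled reads. Its 96 h call (0.60 ± 0.23; limma adjusted p = 0.0476, ranges overlapping) was lost with edgeR (adjusted p = 0.0505) and DESeq2 (0.0653), and without 0 h replicates 2 or 3 or 96 h replicates 2 or 3 (limma, 0.129 to 0.184). Of 10 kinases and ubiquitin ligases that regulate potassium transport, 3 were higher and 3 lower at 96 h (60% called), and in Pax7 against Neo none of 8 tested was higher and 3 were lower (37.5%).

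The authors' deposited table of comparisons called 7 potassium channel genes at 12 h, 10 at 24 h, 15 at 96 h and 4 between 24 and 96 h at an FDR under 0.05. Each of these was also called here, in the same direction. For Pax7 against Neo the authors' deposited table called 0 potassium channel genes, against 16 here with limma. In that comparison of the authors' deposited table none of the genes had an unadjusted p under 0.05, and the log2 fold was listed as 0 for 82 of the 92.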

How the data were processed

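The submitters' processing notes name TopHat, HOMER, edgeR and mm10. Per the file headers, the authors' ER-Pax7 values are exon reads per gene scaled to a common depth (unit signal), and for the other 4 libraries the authors deposited FPKM, which divide by gene-body length; no strand option is listed. Their deposited log2 folds, p-values and FDR are quoted as theirs. Scaled exon reads were whole multiples of 1 read within 0.1 reads for 100% of values. Because both tables hold scaled values and not counts, they were fitted with limma 3.58.1 (R 4.3.3, variance trend) in place of a count test, on log2(value / TMM factor + 1) or log2(FPKM / TMM factor + 0.1), over all genes passing the filter, with all 12 ER-Pax7 libraries in one model and Benjamini-Hochberg adjustment. Fold changes on these scales understate the change of low genes. edgeR 4.0.16 and DESeq2 1.42.0 on the recovered reads were alternatives. The script was tested on simulated data. Genes named: Kcnma1, Kcnj1, those called with an absolute log2 difference of at least 0.5, those called in both experiments, the highest of each subfamily and the 5 highest in all. A few others called (Kcnq1, Kcnj6, Kcnip2, Kcnu1, Kcnk4) were named after their values were seen. The gene family and the lists were chosen with earlier results of these data known, although the symbol rule uses no measured value. Some genes are not reported here.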

Additional observations from a re-analysis of the deposited data

Results flagged for a closer look

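For 3 potassium channel genes called in both experiments, the groups did not overlap and differed in opposite directions. The difference between the experiments was not tested because the tables were normalized separately. Over all genes called in both, 87.4% moved the same way. The share of all genes whose groups did not overlap was not counted. With only 2 libraries on each side of Pax7 against Neo, groups that do not overlap add little to a call. Kcnf1 was 0.29 higher in Pax7 than in Neo (log2) and at -0.86 at 96 h against 0 h. Kcnk16 was 0.87 higher in Pax7 than in Neo and at -0.15 at 96 h. Kcnk3 was 0.15 higher in Pax7 than in Neo and at -0.25 at 96 h. For each of these genes both tables count the same RefSeq transcript. The Pax7 against Neo calls of Kcnf1 and Kcnk3 were lost whichever library was left out. The 96 h call of Kcnk16 was lost in 5 of 6 leave-outs.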

How the results depend on the processing

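The 2 libraries on each side limit Pax7 against Neo most. Its 16 calls became between 6 and 8 when 1 library was left out, where the lone library of a group is assumed to vary like the others, and 10 with the replicate block. In the time course, leaving out 1 library gave between 9 and 12 calls at 12 h, 14 and 17 at 24 h, 21 and 24 at 96 h, and 7 and 10 between 24 and 96 h. With the replicate block these counts were 14, 20, 26 and 10. Whether replicate numbers pair these libraries was not settled. In the time course same-number correlations of deviations from group means had a median of 0.04, against -0.02 for different numbers. Of the same-number correlations 1 of 18 was over 0.1. Over all other settings (TMM factors, pseudocounts, filters, variance trend, edgeR and DESeq2 on recovered reads, only the groups compared) each count stayed within 1.5 times the main one. For single genes 112 results lost their call, 11 gained one and 2070 kept their status. Of results called in the main fit or in the alternative, 0 changed direction. The signs of results called in neither were not compared. Depth limits the 40 genes under the exon-read filter, which were not tested.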
